A study of Arabidopsis thaliana with 12 samples.

Results

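The subject here is whether the response of Arabidopsis root tips to the cytokinin BAP depended on the genotype, that is on the presence of an intact ARGONAUTE10 (AGO10) gene. All 12 libraries of the series enter, 3 in each of 4 groups. The groups are Col-0 mock (wild type), Col-0 BAP, ago10-1 mock and ago10-1 BAP, and ago10-1 carries a T-DNA in a Col-0 background, so that 1 insertion allele stands for the loss of the gene. Seedlings grown on plates were sprayed with 1 µM BAP 6 days after germination and taken 2 h later. The others are mock in the labels and were left untreated by the methods. If they were not sprayed, the effects of spraying and of BAP cannot be told apart within a response. Each library holds RNA from root tips pooled to 50 mg. The BAP response of a gene is the log2 difference between BAP and mock, and the interaction is the response in ago10-1 minus the response in Col-0, so that a negative value means a lower response in the mutant. All values are normalized counts, with 1 added before the log2, and the interaction was tested in 19206 genes with a mean of at least 10.

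Cytokinins such as the synthetic BAP (6-benzylaminopurine) bind histidine kinase receptors, and a phosphate passes through phosphotransfer proteins to type-B response regulators, transcription factors that switch on the genes of the type-A response regulators within minutes to hours. The type-A proteins dampen the same pathway. AGO10 binds the microRNAs miR165 and miR166 and keeps them from ARGONAUTE1, which spares the messages of the HD-ZIP III transcription factors that pattern the vascular tissue. Several of the genes described below belong to jasmonate signalling, in which JAZ proteins repress MYC transcription factors until the hormone triggers JAZ breakdown, and in which the JAZ genes are themselves targets of the MYC factors.

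At a p under 0.01, the threshold of the study, taken here as unadjusted, limma called 12 of 19206 genes for the interaction, which is 0.0625% of the genes tested. Of these, 4 had a higher BAP response in ago10-1 (0.0208%) and 8 a lower one (0.0417%). A uniform spread of p-values over the same genes would place 192 of them under 0.01. At an unadjusted p under 0.05 limma called 182 genes (0.948%), 82 higher and 100 lower. After Benjamini-Hochberg adjustment limma called 0 genes (0%), the smallest adjusted p was 1.00, and edgeR and DESeq2 likewise called 0 after adjustment. The 12 genes are therefore described by their values in each library, as the genes of smallest p, and none carries an adjusted call. The labels call the libraries biological replicates, and the p-values measure the spread between these libraries only.

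The 250 bases in front of the annotated start are shown for the 4 genes of smallest p and for JAZ10, which was added after its value was seen because it shares its family with JAZ2. The sequences were read 5′ to 3′ from the RefSeq copy of TAIR10, and capitals mark a match to CACGTG (the G-box, a MYC binding site), to CACATG or its complement CATGTG (a G-box variant) or to AGATAC or its complement GTATCT (the letters bound by type-B response regulators).
JAZ2 (chr1:28150447-28150696, minus strand): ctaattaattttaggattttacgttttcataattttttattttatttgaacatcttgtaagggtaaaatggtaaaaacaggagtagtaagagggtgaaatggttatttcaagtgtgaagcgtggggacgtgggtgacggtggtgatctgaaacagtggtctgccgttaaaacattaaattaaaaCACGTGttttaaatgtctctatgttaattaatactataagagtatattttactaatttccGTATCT
JAM1 (chr2:19093374-19093623, minus strand): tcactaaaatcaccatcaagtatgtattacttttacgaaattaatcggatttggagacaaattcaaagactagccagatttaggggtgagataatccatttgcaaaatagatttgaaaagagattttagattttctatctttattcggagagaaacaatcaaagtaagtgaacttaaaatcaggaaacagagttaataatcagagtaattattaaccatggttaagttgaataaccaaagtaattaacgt
JAZ10 (chr5:4218536-4218785, plus strand): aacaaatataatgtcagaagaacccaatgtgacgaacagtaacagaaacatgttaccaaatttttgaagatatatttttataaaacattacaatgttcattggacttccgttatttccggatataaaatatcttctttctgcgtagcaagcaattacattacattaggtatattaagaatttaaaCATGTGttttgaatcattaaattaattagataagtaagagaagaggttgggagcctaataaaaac
AT4G38410 (chr4:17980428-17980677, plus strand): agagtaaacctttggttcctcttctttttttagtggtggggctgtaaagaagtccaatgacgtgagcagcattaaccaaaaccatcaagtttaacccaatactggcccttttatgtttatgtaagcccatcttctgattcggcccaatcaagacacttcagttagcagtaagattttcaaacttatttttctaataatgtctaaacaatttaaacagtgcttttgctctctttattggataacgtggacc
LpxB (chr2:1592704-1592953, minus strand): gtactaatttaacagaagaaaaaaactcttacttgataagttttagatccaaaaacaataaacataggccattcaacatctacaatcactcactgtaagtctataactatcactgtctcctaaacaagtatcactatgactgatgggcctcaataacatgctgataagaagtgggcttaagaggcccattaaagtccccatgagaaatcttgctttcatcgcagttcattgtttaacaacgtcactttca
JAZ2 held a G-box 66 bases and GTATCT 6 bases before the start, JAZ10 held CATGTG 65 bases before it, and JAM1, AT4G38410 and LpxB held none of the 3 motifs in this window. Among 19155 such windows of tested genes, 7.24% held the G-box, 11.02% the variant and 9.32% the response regulator letters. The only other called gene with a match was IDD4, with the variant at 145 bases and AGATAC or its complement at 187 bases before the start. A G-box stood in 3 of 10 tested JAZ genes, in 2 of 10 jasmonate synthesis genes and in 0 of 10 type-A response regulator genes. It stood in 0 of 7 tested genes of the list of MYC activators and JAM repressors. The variant stood in 2 of 10 JAZ, 2 of 10 synthesis, 3 of 10 type-A and 0 of 7 MYC and JAM list genes. The response regulator letters stood in 1 of 10, 0 of 10, 2 of 10 and 0 of 7 in the same order. These matches describe letters and not binding.

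AGO10 itself (AT5G43810) was checked first. Its normalized counts were 1040, 696 and 914 in Col-0 mock, 568, 926 and 1051 in Col-0 BAP, 187, 175 and 138 in ago10-1 mock and 130, 175 and 167 in ago10-1 BAP. The mutant libraries all lay below the wild type libraries, as their labels have it. The AGO10 response to BAP was -0.09 in Col-0 and -0.08 in ago10-1, with an interaction of 0.01 (SE 0.34).

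Between 19394256 and 34899796 reads fell on genes in each library. Replicate 1 was the lowest library of every group on the first principal component, which took 53.6% of the variance. Col-0 BAP 1 (-91.0), ago10-1 BAP 1 (-79.0), ago10-1 mock 1 (-38.1) and Col-0 mock 1 (-18.4) were the 4 lowest libraries. The other 8 lay between -1.78 and 68.6. In Col-0 mock replicate 1 did not stand apart, since the other libraries of that group lay at 1.88 and 58.4. The fit therefore carried replicate 1 against the other replicates as a block. The gap of replicate 1 was wider in the BAP libraries, whereas the block takes 1 gap for all groups. A pair of Col-0 mock libraries share 1 replicate number in the file and are called A and B. The median SD between replicates on the log2 scale was 0.34 in Col-0 BAP, 0.24 in ago10-1 BAP, 0.20 in Col-0 mock and 0.19 in ago10-1 mock. Without replicate 1 it was 0.14, 0.18, 0.18 and 0.13 in the same order, so that Col-0 BAP was no longer the most variable group. These SDs rest on fewer libraries per group, so their fall cannot be credited to replicate 1 alone. The median standard error of an interaction was 0.24, and its 95% confidence interval was narrower than 1 log2 unit to either side in 79.9% of the genes.

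Jasmonate genes made up 3 of the 8 genes with a lower response in ago10-1. Of the 19206 tested genes, 10 were JAZ repressors and 7 stood in the list of MYC activators and JAM repressors. Jasmonate synthesis held 10 tested genes and jasmonate breakdown 7. These lists were chosen with earlier results of these data known. JAZ2 (TIFY10B in RefSeq, AT1G74950, chr1:28148574-28150446, minus strand), a JAZ repressor, counted 289, 359 and 373 in Col-0 mock (replicate 1, A and B), 497, 419 and 322 in Col-0 BAP, 684, 643 and 849 in ago10-1 mock and 410, 433 and 429 in ago10-1 BAP. The ago10-1 mock libraries lay above all other 9 libraries, while ago10-1 BAP fell within the range of Col-0 BAP. The JAZ2 response was 0.26 in Col-0 and -0.76 in ago10-1, which gave an interaction of -1.03 (SE 0.25, 95% confidence interval -1.57 to -0.49), the smallest p of all genes in limma.

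JAM1 (AIB in RefSeq, AT2G46510, chr2:19090953-19093373, minus strand) encodes a bHLH protein that represses jasmonate responses by competing with MYC factors for their sites. It counted 73.3, 78.3 and 76.7 in Col-0 mock, 82.1, 81.0 and 76.5 in Col-0 BAP, 186, 182 and 229 in ago10-1 mock and 53.9, 111 and 102 in ago10-1 BAP. The ago10-1 mock libraries were again the 3 highest of the 12. The JAM1 response was 0.07 in Col-0 and -1.21 in ago10-1, with an interaction of -1.28 (SE 0.32, 95% confidence interval -1.99 to -0.57).

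JAZ10 (AT5G13220, chr5:4218786-4221077, plus strand), a JAZ repressor known for splice forms that resist breakdown, counted 40.2, 78.3 and 111 in Col-0 mock, 43.8, 169 and 119 in Col-0 BAP, 127, 175 and 380 in ago10-1 mock and 51.7, 108 and 133 in ago10-1 BAP. The groups overlapped, and replicate 1 was the lowest library of each group. The JAZ10 response was 0.44 in Col-0 and -1.16 in ago10-1, with an interaction of -1.60 (SE 0.42, 95% confidence interval -2.52 to -0.68). The JAZ10 call was lost without ago10-1 mock 1, where the interaction was -1.48, and without the replicate block, where the estimate stayed and its error grew. JAZ10 overlaps an antisense gene by 71 bases, which is listed at a mean of 0 normalized counts. Whether the counting used strand is not given.

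All 13 genes on the list of JAZ repressors were in the table, and 10 passed the filter on low values. JAZ2 and JAZ10 were called lower, 4 of the 10 were lower at an unadjusted p under 0.05, and 8 of the 10 interactions were negative. Over all genes tested 52.4% of the interactions were positive. The lowest JAZ interaction, -2.89, was in a gene outside these 4. The median interaction of the 10 genes was -0.77, against 0.01 over all genes tested. Their median response was 0.26 in Col-0 and -0.34 in ago10-1. JAZ9 missed the threshold, with 68.5, 139 and 72.3 in Col-0 mock, 212, 160 and 166 in Col-0 BAP, 204, 221 and 284 in ago10-1 mock and 92.1, 183 and 283 in ago10-1 BAP. In JAZ9 the Col-0 BAP libraries lay above the Col-0 mock libraries, and the ago10-1 groups overlapped. The JAZ9 interaction was -1.47 (SE 0.48, 95% confidence interval -2.54 to -0.40), and that of JAZ1 was -0.80 (SE 0.33, 95% confidence interval -1.53 to -0.07). DESeq2 called JAZ9, and so did limma without Col-0 mock A (-1.74) and without ago10-1 BAP 3 (-1.79). JAZ3 (-0.15), JAZ12 (-0.04) and JAZ11 (0.10) had values near 0, with confidence intervals of -0.61 to 0.32, -0.58 to 0.50 and -0.41 to 0.62. The median of the JAZ list ran from -1.06 to -0.39 when each library was left out in turn, and it was -0.39 without Col-0 BAP 1 and -0.63 without Col-0 mock 1.

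Other parts of the jasmonate pathway held no further call. In the list of MYC activators and JAM repressors, which also holds the receptor gene COI1 and the adaptor gene NINJA, JAM1 was the only one of 7 tested genes that was called, and the median interaction was -0.11. JAM2 (0.05) and JAM3 (-0.14) had confidence intervals of -0.33 to 0.42 and -0.40 to 0.12. MYC2 is listed at 0 in all 12 libraries and could not be tested. Of 10 tested jasmonate synthesis genes none was called, 7 interactions were negative and the median was -0.08. AOS, the allene oxide synthase at the first committed step, was the gene just outside the threshold, with -0.74 (SE 0.24, 95% confidence interval -1.26 to -0.21). AOS counted 338, 423 and 445 in Col-0 mock, 474, 462 and 325 in Col-0 BAP, 585, 584 and 731 in ago10-1 mock and 391, 404 and 382 in ago10-1 BAP. The 3 ago10-1 mock libraries were the highest of the 12, and edgeR and DESeq2 both called AOS, as did limma without Col-0 BAP 3 (-0.93). Of 7 tested jasmonate breakdown genes none was called, and their median was 0.04, with -0.17 in the fit paired by all replicate numbers.

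**Figure D1:**
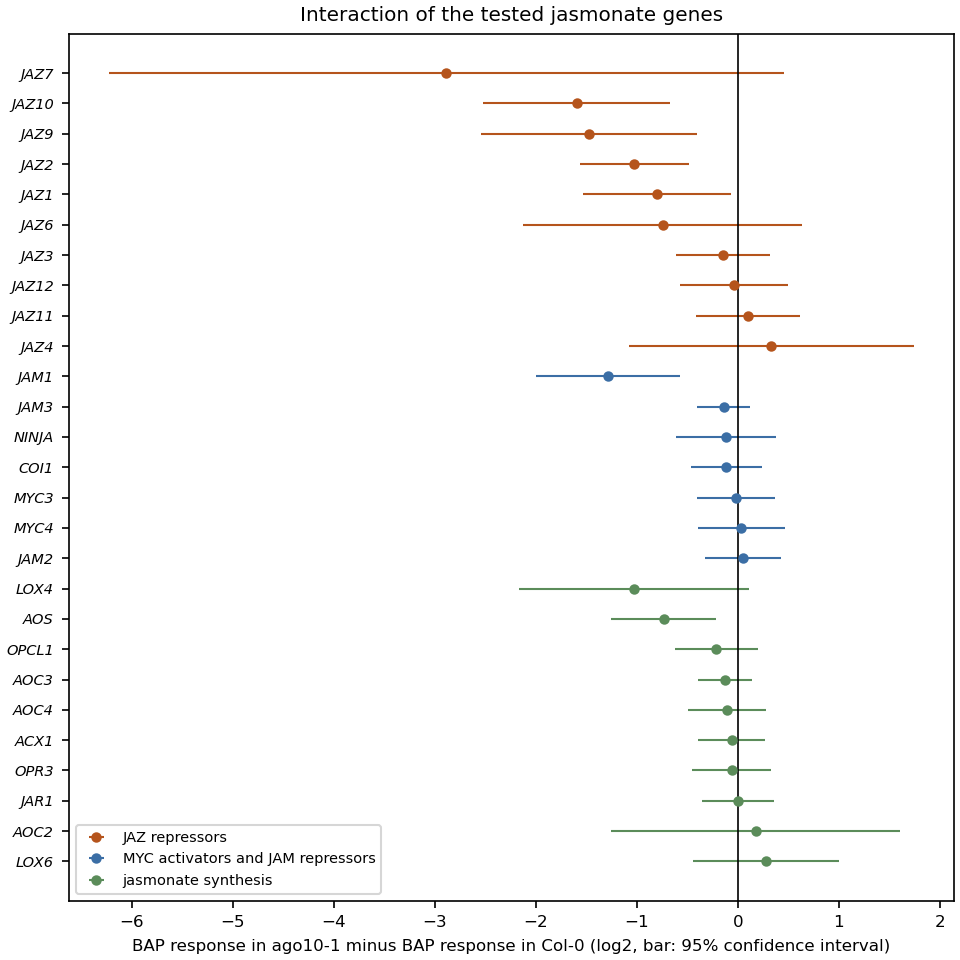
Interaction of each tested jasmonate gene (x axis, log2 response in ago10-1 minus log2 response in Col-0), with the 95% confidence interval as a bar and the 3 lists in separate colours. JAZ10, JAZ9, JAZ2 and JAZ1 and, from the other lists, JAM1 and AOS have intervals that lie wholly below 0.

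A level in ago10-1 mock above every other library was shared by 72 of the 19206 tested genes (0.375%). In the jasmonate and wound lists, JAZ2, JAM1, AOS, LOX4, ORA47, ERF13 and WRKY40 had this pattern. LOX4 is a lipoxygenase of jasmonate synthesis, ORA47 an activator of jasmonate synthesis genes, and ERF13 and WRKY40 are transcription factor genes that respond to wounding. WRKY40 counted 78.0, 148 and 65.6 in Col-0 mock, 68.4, 78.6 and 51.0 in Col-0 BAP, 306, 186 and 256 in ago10-1 mock and 95.5, 97.0 and 116 in ago10-1 BAP. The ago10-1 mock values stood apart from the other 9, while the BAP values of both genotypes overlapped the Col-0 mock values. The interactions of LOX4 (-1.03, SE 0.52), ORA47 (-0.85, SE 0.46), ERF13 (-1.21, SE 0.87) and WRKY40 (-0.76, SE 0.44) were not called, apart from WRKY40 without Col-0 mock A (-1.14). Among the 19 tested early wound and touch genes none was called, 12 interactions were negative and the median was -0.12, which was -0.70 in that paired fit and turned to 0.02 in the replicates other than replicate 1.

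AT4G38410 (chr4:17980678-17981766, plus strand), a dehydrin family gene of the kind that accumulates on drying and cold, counted 42.5, 111 and 109 in Col-0 mock, 107, 214 and 198 in Col-0 BAP, 144, 218 and 236 in ago10-1 mock and 148, 215 and 225 in ago10-1 BAP. Replicate 1 was the lowest library of each group, and Col-0 mock was the lowest group both within replicate 1 and within the other replicates. The AT4G38410 response was 1.03 in Col-0 and -0.02 in ago10-1, with an interaction of -1.05 (SE 0.26, 95% confidence interval -1.61 to -0.49). The call of AT4G38410 was lost without the replicate block, with the same difference and a larger error.

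LpxB (AT2G04560, chr2:1590182-1592703, minus strand) encodes a glycosyl transferase of lipid A synthesis. It counted 96.9, 103 and 91.4 in Col-0 mock, 145, 142 and 136 in Col-0 BAP, 125, 130 and 116 in ago10-1 mock and 103, 101 and 80.6 in ago10-1 BAP. The BAP and mock libraries did not overlap in either genotype, higher after BAP in Col-0 and lower after BAP in ago10-1. LpxB was picked by this difference, and the share of all genes with such separation was not counted. Its Col-0 BAP libraries lay above all others, as in 27 of the 19206 tested genes (0.141%). The LpxB response was 0.54 in Col-0 and -0.38 in ago10-1, with an interaction of -0.92 (SE 0.23, 95% confidence interval -1.42 to -0.42).

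The other 3 genes with a lower response in ago10-1 were called less steadily. NFU3 (AT4G25910), a scaffold for iron-sulfur clusters in chloroplasts, counted 44.9, 38.3 and 31.0 in Col-0 mock, 110, 45.3 and 46.7 in Col-0 BAP, 88.1, 47.4 and 43.1 in ago10-1 mock and 67.4, 35.4 and 31.9 in ago10-1 BAP. Replicate 1 was the highest library of each group. The NFU3 interaction was -1.10 (SE 0.34), and of 12 fits with 1 library left out 1 called it. AT4G22217, a defensin-like gene, counted 126, 383 and 312 in Col-0 mock, 249, 446 and 415 in Col-0 BAP, 198, 485 and 430 in ago10-1 mock and 197, 367 and 407 in ago10-1 BAP. All groups overlapped, and replicate 1 was the lowest library of each. The AT4G22217 interaction was -0.70 (SE 0.22), and 2 of 12 such fits called it. SNOR111, a small nucleolar RNA gene with a mean of 12.5, counted 0, 11.3 and 7.37 in Col-0 mock, 4.11, 27.4 and 22.3 in Col-0 BAP, 9.79, 19.7 and 19.8 in ago10-1 mock and 2.25, 13.6 and 12.2 in ago10-1 BAP. The SNOR111 interaction was -2.65 (SE 0.75), and 6 of 12 such fits called it.

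A higher BAP response in ago10-1 was called for 4 genes. IDD4 (AT2G02080, chr2:518079-521737, minus strand), a zinc finger transcription factor gene of the INDETERMINATE DOMAIN family, counted 249, 221 and 241 in Col-0 mock, 226, 198 and 228 in Col-0 BAP, 187, 214 and 201 in ago10-1 mock and 281, 273 and 268 in ago10-1 BAP. The ago10-1 BAP libraries were the 3 highest of the 12, as in 39 of the 19206 tested genes (0.203%). The IDD4 response was -0.13 in Col-0 and 0.45 in ago10-1, with an interaction of 0.57 (SE 0.18, 95% confidence interval 0.19 to 0.96), and 3 of 12 fits with 1 library left out called it.

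AT1G55440, which encodes a protein with a cysteine and histidine rich C1 domain, counted 28.4, 29.6 and 32.4 in Col-0 mock, 21.9, 29.8 and 17.0 in Col-0 BAP, 4.89, 11.1 and 19.0 in ago10-1 mock and 29.2, 27.1 and 33.5 in ago10-1 BAP. The ago10-1 mock libraries were low, and ago10-1 BAP reached the levels of Col-0 mock. The AT1G55440 interaction was 1.87 (SE 0.58), and 2 of 12 fits with 1 library left out called it. The remaining called genes are noncoding RNAs. AT1G64563 counted 18.4 to 25.2 in Col-0 mock, 17.8, 7.15 and 9.56 in Col-0 BAP, 18.4, 8.69 and 16.4 in ago10-1 mock and 30.3, 21.9 and 26.6 in ago10-1 BAP, with an interaction of 1.85 (SE 0.53). The small nucleolar RNA gene AT3G04175 counted 8.27, 21.7 and 30.2 in Col-0 mock, 2.74, 8.34 and 7.44 in Col-0 BAP, 8.57, 21.3 and 11.2 in ago10-1 mock and 21.4, 18.8 and 22.8 in ago10-1 BAP, with an interaction of 2.17 (SE 0.64). In AT1G64563 the BAP and mock libraries did not overlap in either genotype, and in AT3G04175 they overlapped in both. Both genes were picked by the difference in response, and the share of all genes so separated was not counted. With 1 library left out in turn, AT1G64563 was called in 5 of 12 fits and AT3G04175 in 4 of 12. AT1G64563 overlaps an lncRNA gene on the other strand by 388 bases, which is listed at a mean of 0.

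**Figure D2:**
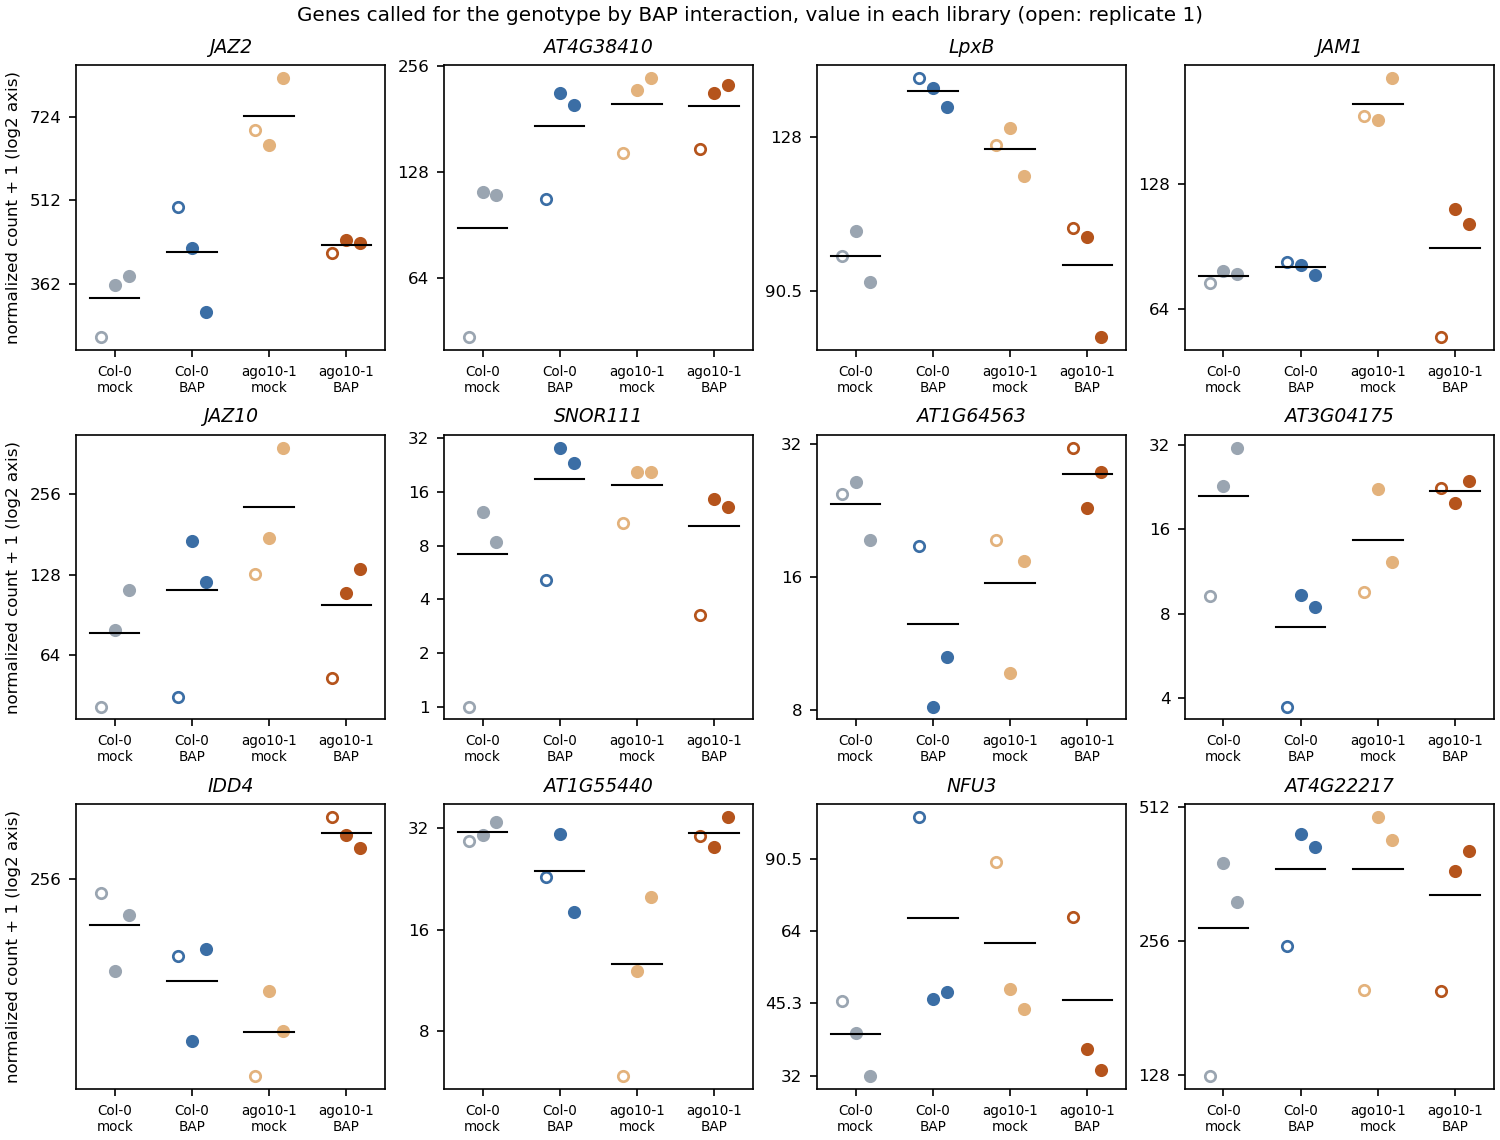
Normalized count plus 1 on a log2 axis for the 12 genes called for the interaction, 1 point per library in the 4 groups, replicate 1 as an open circle and the group mean as a line. In JAZ2 and JAM1 the 3 ago10-1 mock libraries stand above the other 9, and in LpxB the BAP and mock libraries are apart in both genotypes, in opposite order.

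The responses of the 2 genotypes had opposite signs in all 12 called genes, which follows in large part from their choice by the difference between the responses. Over all genes tested 30.5% had opposite signs. Replicate 1 and the other replicates are separate libraries, so the interaction was also taken within each. From the 4 replicate 1 libraries alone, with no test, the interaction was -1.51 for JAZ2, -1.27 for AT4G38410, -0.85 for LpxB, -1.93 for JAM1 and -1.41 for JAZ10. From the other 8 libraries limma gave -0.78 for JAZ2, -0.94 for AT4G38410, -0.95 for LpxB, -0.96 for JAM1 and -1.69 for JAZ10. The sign was that of the full fit in 12 of 12 genes in either set of libraries. That sign is largely given, since the genes were picked by the full fit of the same libraries. The shared sign is therefore no separate support. Of the 12 genes, AT4G38410 alone was called in the fit without replicate 1, among 18 genes called there.

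**Figure D3:**
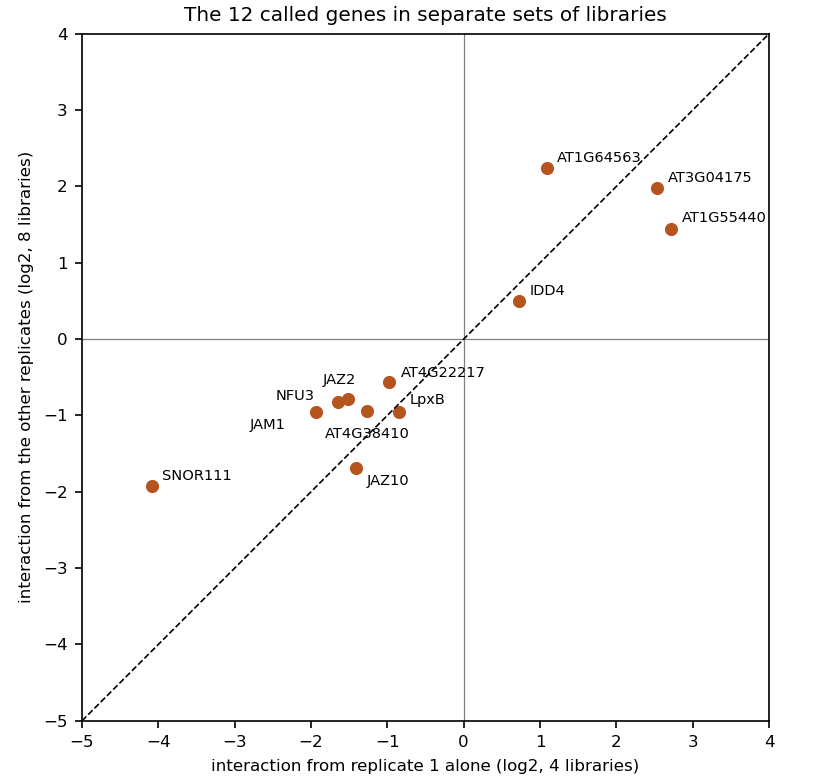
Interaction of the 12 called genes from the 4 replicate 1 libraries alone (x axis, log2) against that from the other 8 libraries (y axis, log2), with the line of equal values dashed. All 12 points lie in the quadrants where both values have 1 sign, from SNOR111 at -4.08 and -1.93 to AT1G55440 at 2.72 and 1.45. The genes were picked by the fit to all of these libraries.

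Libraries with the same replicate number deviated together, and most clearly those of replicate 1, so a block over all 3 numbers was fitted as well, in the 10 libraries whose number is certain. In this paired fit Col-0 mock is represented by replicate 1 alone. It called 35 genes, of which 5 were among the 12: JAZ2 (-1.31), AT4G38410 (-1.47), SNOR111 (-3.68), NFU3 (-1.55) and AT4G22217. LpxB (-0.98), JAM1 (-1.11), JAZ10 (-1.53), IDD4 (0.65), AT1G55440 (2.12), AT1G64563 (1.51) and AT3G04175 (1.59) lost the call under the replicate block by number and kept their sign. Without any block limma called 4 genes, JAZ2, LpxB, JAM1 and IDD4. With 1 library left out in turn, limma called JAZ2, AT4G38410, LpxB and JAM1 in 12 of 12 fits and JAZ10 in 11.

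Most of the BAP response was not among these genes. Limma called 188 genes (0.979%) for BAP in Col-0, 185 genes (0.963%) for BAP in ago10-1 and 537 genes (2.80%) for the mean of both responses, 408 higher and 129 lower, and 25 genes (0.130%) passed an adjusted p under 0.05 for the mean. By DESeq2 the calls for BAP were 249 in Col-0 and 359 in ago10-1, and by edgeR 176 and 189. In the limma fit, which is balanced, the mean response and the interaction are separate contrasts. Of the 537 genes, 535 had responses of the same sign in the 2 genotypes, which largely follows from their choice by the mean of both, and 261 (48.6%) had the larger response in ago10-1. The median size of the response was 0.47 in Col-0 and 0.48 in ago10-1. Among the 408 genes that rose, 204 (50%) had the larger response in ago10-1, and among the 129 that fell, 57 (44.2%). The share moved with the choice of genes and libraries. It was 56.3% among the 2050 genes with p under 0.05, 21.8% without Col-0 mock A, 75.0% without ago10-1 BAP 2 and 9.97% in the paired fit of 10 libraries, and leaving out 1 library ends the balance that keeps both contrasts separate. The paired fit, in which Col-0 mock is replicate 1 alone, lacks that balance as well, so its share cannot be set beside 48.6%. Of the 537 genes, AT4G38410 and JAM1 were also called for the interaction.

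Genes of flavonol synthesis led the shared response. The 10 genes of smallest p for the mean response were 4CL3, FLS1, SAHH2, KAT5, AT5G17040, F3'H, AT5G62210, CHI, CHIL and APR3, all higher after BAP. FLS1, flavonol synthase, counted 1843, 4672 and 2942 in Col-0 mock, 5808, 9690 and 9191 in Col-0 BAP, 1644, 3885 and 3638 in ago10-1 mock and 5286, 7239 and 8449 in ago10-1 BAP. The BAP libraries lay above the mock libraries in both genotypes, and replicate 1 was the lowest of each group. The FLS1 response was 1.45 in Col-0 and 1.27 in ago10-1, and the interval of the difference was -0.72 to 0.35. 4CL3, a coumarate ligase gene, had 1.56 and 1.49 with an interval of -0.56 to 0.42. APR3, an adenosine phosphosulfate reductase of sulfate assimilation, had 0.60 in both, with an interval of -0.31 to 0.29. SAHH2, which recycles the product of methylation reactions, had 0.80 in both, with an interval of -0.32 to 0.32.

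Across the 25 genes with an adjusted call the response was larger in ago10-1 in 7, with a median response of 1.34 in Col-0 and 0.98 in ago10-1. The 2 medians fall on different genes, so their gap is not the typical difference within a gene. They are AT2G23910 (1.34 in Col-0, 1.23 in ago10-1) and GCL1 (1.39 in Col-0, 0.98 in ago10-1). The count of 7 was not taken under the alternatives. The widest difference was -0.72 for AT4G27560 (95% confidence interval -1.35 to -0.08). Of 8 tested flavonol genes 6 were called for the mean response, all higher, and none for the interaction, with medians of 1.08 in Col-0 and 0.86 in ago10-1. Of 24 tested tau glutathione transferase genes, which conjugate glutathione to reactive compounds, 11 were called higher for the mean and none for the interaction, with a median interaction of -0.03 that was -0.22 in the paired fit and 0.19 without replicate 1. Of 8 tested cold and abscisic acid genes 4 were called higher for the mean and none for the interaction.

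**Figure D4:**
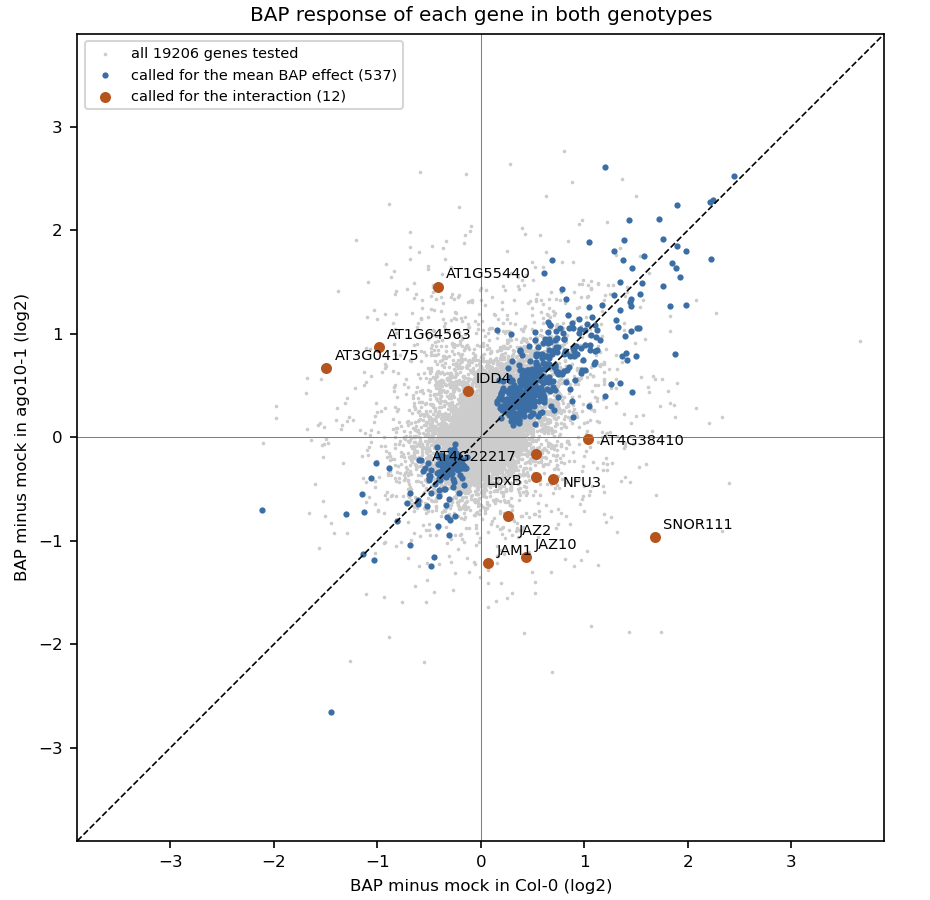
BAP response in Col-0 (x axis, log2) against that in ago10-1 (y axis, log2) for the 19206 tested genes in grey, the 537 genes called for the mean response in blue and the 12 genes called for the interaction in orange, with the line of equal response dashed. The blue points spread along the line, 261 of them with the larger response in ago10-1, and the orange points lie where the responses have opposite signs.

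The type-A response regulators, the early targets of cytokinin, held no gene called for the interaction. Of the 10 tested genes 4 had a positive and 6 a negative interaction, and the median was -0.03. The sign of this median depended on the libraries: it was -0.39 with 1 of 10 positive in the paired fit, 0.35 with 8 of 10 positive without replicate 1, and -0.15 (without ago10-1 BAP 3) to 0.18 (without Col-0 mock 1) with 1 library left out. The median response was 0.38 in Col-0 and 0.35 in ago10-1, and ARR3, ARR4, ARR8 and ARR9 were called higher for the mean. ARR4 counted 1694, 2726 and 2802 in Col-0 mock, 2743, 3271 and 3256 in Col-0 BAP, 1753, 2474 and 2794 in ago10-1 mock and 2659, 2517 and 3534 in ago10-1 BAP. In ARR4 the groups overlapped in both genotypes. The intervals of the interaction were -0.52 to 0.38 for ARR4, -0.50 to 0.39 for ARR3, -0.47 to 0.35 for ARR8 and -0.57 to 0.49 for ARR9, which leaves room for differences up to those bounds. ARR5 (interval -0.80 to 0.82) and ARR6 (-0.71 to 0.95) were less certain. ARR7 (-2.58 to 2.55) and ARR15 (-1.12 to 1.40), which had few reads, left wide ranges, as did ARR16 (SE 1.60) and ARR17 (SE 0.88).

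The other steps of the cytokinin pathway held no call for the interaction. The median interaction was 0.11 in 6 type-B response regulators, 0.11 in 8 receptor and phosphotransfer genes, 0.07 in 6 breakdown and conjugation genes, -0.07 in 13 synthesis and activation genes and 0.17 in 6 cytokinin response factors. In the paired fit these medians were 0.02, -0.12, -0.26, -0.31 and 0.15 in the same order, and without replicate 1 they were 0.16, 0.33, 0.20, -0.002 and -0.22. Over all alternatives run, 7 of the 30 lists kept the sign of their median: the JAZ repressors, the MYC activators and JAM repressors, the jasmonate synthesis, flavonol and root cap genes, the type-B response regulators and the ARGONAUTE family. The other 23 changed sign in at least 1 alternative, 14 of them in the paired fit and 6 without replicate 1. The medians of these 23 give no direction. The alternatives reuse the same libraries, so a kept sign is no separate evidence of a direction either. In the type-B response regulators the median was 0.02 in the paired fit, with 3 of 6 positive. AHP6, a pseudo phosphotransfer protein that blocks cytokinin signalling in protoxylem, had responses of -1.07 in Col-0 and -0.39 in ago10-1, with an interaction of 0.67 (95% confidence interval -0.31 to 1.65). None of the 8 tested HD-ZIP III and ZPR genes was called, and their median was 0.03, with ZPR1, a small protein that inhibits HD-ZIP III factors, nearest to the threshold (0.49, SE 0.22). The 6 tested members of the ARGONAUTE family had a median of 0.14.

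Lists of cell types were read beside these values. None of their members was called for the interaction, and fewer cells of a type and less RNA per cell cannot be told apart in root tip RNA. The 8 root cap genes had a median interaction of 0.97, with 7 of 8 positive, and their summed counts were 6085 to 6954 in Col-0 mock, 4653 to 5693 in Col-0 BAP, 2307 to 6420 in ago10-1 mock and 4681 to 8686 in ago10-1 BAP. The lowest sum came from ago10-1 mock 2, and without that library the median was 0.37. In the paired fit it was 0.53, and without replicate 1 it was 1.22. The 20 root hair genes had a median of 0.36, with 19 of 20 positive. It became -0.05 in the paired fit and 0.79 without replicate 1, there again with 19 of 20 positive. With 1 library left out it ran from 0.08 without Col-0 mock A, 0.09 without Col-0 BAP 3 and 0.10 without ago10-1 BAP 3 to 0.72 without Col-0 BAP 1. The 15 xylem genes had a median of 0.07, the 14 phloem genes 0.13, the 18 genes of dividing cells 0.02 and the 7 genes of the stem cell niche 0.08, which became -0.19, -0.12, 0.09 and 0.25 in the paired fit and 0.27, 0.10, -0.17 and 0.01 without replicate 1. No gene of these root tissue lists was at 0 in all libraries. The 9 tested genes of green shoot tissue, whose summed counts were 481 to 3652, had a median of 0.10, which was -0.16 in the paired fit and 0.57 without replicate 1. The part of these tissue shares in the 12 called genes was not tested.

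Nor was any member called in the remaining lists. The median interaction was 0.37 in 7 iron genes, -0.24 in the paired fit and 0.76 without replicate 1. With 1 library left out it ran from 0.03 without Col-0 BAP 3 to 0.67 without Col-0 BAP 1. Among these genes BTS, a ubiquitin ligase that restrains iron uptake, had 0.42 (95% confidence interval 0.05 to 0.79). The median was 0.20 in 12 ethylene synthesis genes, 0.12 in 10 heat shock genes, 0.12 in 8 cold and abscisic acid genes and 0.09 in 17 phenylpropanoid and lignin genes. In the paired fit these were -0.05, -0.14, -0.57 and -0.08, and without replicate 1 they were 0.52, 0.21, 0.51 and 0.24. It was 0.08 in 16 sulfate genes, 0.05 in 15 auxin genes, -0.03 in 14 clock genes and -0.18 in the flavonol genes. In the paired fit these were -0.17, -0.04, -0.24 and -0.21, and without replicate 1 they were 0.31, 0.06, 0.06 and -0.25. Of the 30 lists, the JAZ repressors and the list of MYC activators and JAM repressors alone held a called gene.

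**Figure D5:**
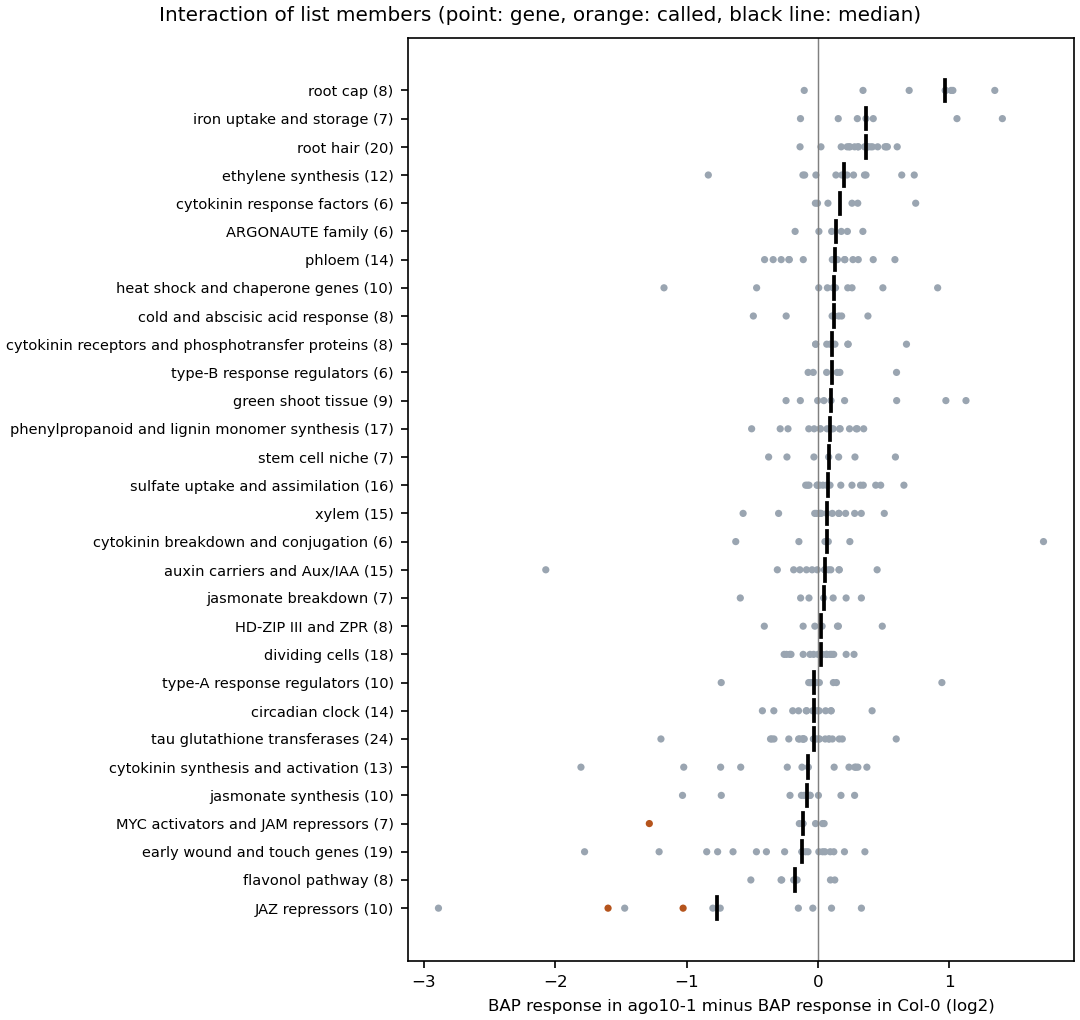
Interaction (x axis, log2) of each tested member of the 30 gene lists, 1 row per list with the number of tested genes in brackets, called genes in orange and the list median as a black line. The lowest median is that of the JAZ repressors at -0.77 and the highest that of the root cap genes at 0.97, and called genes appear in the rows of the JAZ repressors and of the MYC activators and JAM repressors.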

How the data were processed

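RNA of root tips was sequenced in 12 libraries. The authors' steps were alignment with STAR, counting with featureCounts on TAIR10 genes and normalization with DESeq2. The versions, the strandedness and any batch are not given in the sources used here. Plants without BAP are mock in the labels and untreated in the methods, and the tips are 1 mm long in the labels, against a cut at 1 to 3 mm in the methods.

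The signal deposited by the authors is the read count of each gene divided by the size factor of the library, for 32833 genes. Multiplied back, 100% of the values gave whole reads (tolerance 1e-06), and these gave the depth and the input of the count tools. Of the gene IDs, 32548 matched RefSeq, which gave symbols and coordinates.

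Genes averaging 10 or more normalized counts were tested on log2(value + 1) with limma 3.58.1 (R 4.3.3, trended variances), with 4 group means and replicate 1 against the other replicates as a block. Fold changes on this scale understate the change of low genes. Genes with a p under 0.01, the threshold of the study and taken here as unadjusted, are called, and Benjamini-Hochberg adjusted values over all genes tested stand beside. edgeR 4.0.16 (quasi-likelihood) and DESeq2 1.42.0, both on the recovered reads, other pseudocounts and filters, TMM scaling, other blocks and leaving out each library were the alternatives.

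Same-numbered libraries deviated together from their group means, with correlations over genes of 0.55 to 0.78 for replicate 1 (6 pairs), 0.25 to 0.45 for replicate 2 (3 pairs) and 0.29 to 0.45 for replicate 3 (3 pairs). All exceeded 0.1, the bound set for taking the numbers as pairs. Libraries of different numbers ranged from -0.72 to 0.66, and several pairs of replicate 2 with replicate 3 overlapped the same-number values, so that the pairing is clear for replicate 1 and weak between the numbers 2 and 3.

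Genes named are those called for the interaction, AGO10, the type-A response regulators, the 10 genes of smallest p for the mean response and up to 3 members per list of smallest interaction p. Other genes were named after their values were seen. The comparison, the 30 gene lists (388 genes) and the rules were chosen with earlier results of these data known.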

Additional observations from a re-analysis of the deposited data

Results flagged for a closer look

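A difference between the genotypes in their response to BAP, by limma's test of the interaction at an unadjusted p under 0.01, singled out 12 genes, none with an adjusted p under 0.05. A lower log2 response in ago10-1 than in Col-0 was found for SNOR111 (-2.65), JAZ10 (-1.60), JAM1 (-1.28), NFU3 (-1.10), AT4G38410 (-1.05), JAZ2 (-1.03), LpxB (-0.92) and AT4G22217 (-0.70). A higher one was found for AT3G04175 (2.17), AT1G55440 (1.87), AT1G64563 (1.85) and IDD4 (0.57). Lower and higher keep the sign of the response and do not give its size. JAM1, JAZ10 and JAZ2 fell after BAP in ago10-1 (-1.21, -1.16 and -0.76), against 0.07, 0.44 and 0.26 in Col-0. The response of AT4G38410 was instead 1.03 in Col-0 and -0.02 in ago10-1. SNOR111 had a mean of 12.5 normalized counts.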

How the results depend on the processing

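All 12 interaction genes kept their sign under every alternative run (272 values, of which 175 kept the call and 97 lost it). That sign is largely given, since the full fit picked the genes and the alternatives reuse its libraries. It is no separate support. Among 103 other named genes, 122 of 2351 values changed sign and 10 became called, in AOS, JAZ9, WRKY40 and CML37. The adjusted count stayed at 0 in every fit. The number of interaction calls was 12 with a pseudocount of 0.5 or 5, 4 without the replicate block, 35 with the replicate block by number (10 libraries, 5 of the 12 among them), 65 with no filter on low values, 31 by DESeq2 and 35 without Col-0 BAP 1 and ago10-1 BAP 1, an alternative chosen after seeing the data. With 1 library left out it ran from 10 to 61, and it was 61 without Col-0 BAP 1, 23 without Col-0 mock 1, 22 without Col-0 mock A, 22 without Col-0 BAP 3, 21 without ago10-1 BAP 2 and 19 without ago10-1 mock 3. The fit without replicate 1 called 18 genes, 1 of them among the 12, edgeR called 14, and a filter at a mean of 50 gave 8 calls among 16837 genes, 7 of them among the 12.

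For BAP in Col-0 the calls were 75 without the block, 62 without replicate 1 and 102 without both BAP 1 libraries. They were 249 by DESeq2 and 70 to 461 with 1 library left out. For BAP in ago10-1 they were 67 without the block, 88 without replicate 1 and 116 without both BAP 1 libraries. They were 359 by DESeq2 and 84 to 321 with 1 library left out. For the mean response they were 221, 141 and 188, 824 by DESeq2 and 267 to 1184 with 1 library left out. The percentage of genes with the larger response in ago10-1, 48.6, became 56.3 for genes picked at p under 0.05, 51.5 by edgeR, 56.8 by DESeq2, 51.6 without both BAP 1 libraries, 9.97 in the paired fit and 21.8 to 75.0 with 1 library left out. The cause of these changes was not tested.

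With 3 libraries per group, the median 95% confidence interval of an interaction reached 0.53 log2 units to either side. The difference needed for a call at p under 0.01 depended on the error of each gene. It was larger than the reach of that gene's own 95% interval.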
